A study of Bos taurus with 6 samples.

Results

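CRABP2 and the other retinoid genes named for this description were CRABP2, CRABP1, RBP4, RARA, RARB, RARG, STRA6, ALDH1A1 and DHRS3, 9 genes among the 26332 mRNAs of the table. CRABP2 was chosen by its fold change and adjusted P-value after resveratrol (RSV), a polyphenol of grapes, and the others because they act in the same pathway. The contrast of RSV against DMSO is therefore described here and not tested for these genes. The table lists Ensembl identifiers only, and names came from the authors' sheet of differentially expressed (DE) mRNAs, which as available here names 1863 mRNAs. It paired 7 of the 9 genes with an identifier, and STRA6 and ALDH1A1 were not analysed here.

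The samples were primary myoblasts from the longissimus dorsi muscle of fetal cattle, kept for 4 days in differentiation medium. There were 3 cultures with 20 μM RSV dissolved in DMSO (RSV group) and 3 cultures with DMSO alone (control, here DMSO group), so every culture received the solvent. The labels do not say whether the cultures came from separate fetuses, and the spread given here is that between these cultures. The table holds only the mean of each group, as reads divided by a size factor that scales each library for depth, and whole reads of single libraries were recovered from these means. Libraries recovered in this way are named by size factor, since the table itself gives them no replicate number. The size factors of the RSV libraries were 1.09, 1.08 and 1.05, and those of the DMSO libraries 0.964, 0.960 and 0.886, and values are given in this order. Recovered reads summed to between 11048205 and 13221628 per library.

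Retinoids are vitamin A and its derivatives. Retinol travels in blood on RBP4, is oxidised inside the cell to retinal and then to retinoic acid, and the acid is bound by CRABP1 and CRABP2. CRABP2 hands the acid to the retinoic acid receptors RARA, RARB and RARG, nuclear receptors that switch target genes, while CRABP1 holds it in the cytoplasm. In embryonic muscle and limb, retinoic acid is a well known signal for patterning and for the differentiation of precursor cells.

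The RSV library with size factor 1.05 stood apart. Its squared Pearson correlation over mRNAs, on log10(normalised reads + 1), was 0.970 with one and 0.964 with another library of its group. The pair without it reached 0.979, and pairs of DMSO libraries reached 0.977 or 0.978. Values without this library are therefore given beside the results. Among named muscle markers, 6 of 14 listed genes could be looked up and all 6 were higher in RSV. They include MYMK, the membrane protein of myoblast fusion, with 1083.8 to 1114.5 normalised reads in DMSO and 1629.8 to 1998.3 in RSV. The muscle determination factors MYOD1, MYF5 and MYOG were not among the named mRNAs. Of 8 listed fibroblast markers 5 could be looked up, and their summed FPKM (fragments per kilobase of transcript) was 6550 to 6845 in DMSO and 4497 to 5385 in RSV, lower for all 5. The 2 named smooth muscle markers of 4 listed, ACTA2 and CNN1, had a summed FPKM of 2188 to 2369 in DMSO and 472 to 1470 in RSV. These FPKM sums carry a scaling that puts RSV higher than the size factors do, by a median log2 of 0.14. CNN1 had 1308.2 normalised reads in the library with size factor 1.05 and 2387.1 and 3719.4 in the other RSV libraries. In DMSO it had 4924.9 to 5628.6. None of the 4 fat, 3 endothelial and 2 leukocyte markers had a name. Markers have a name here only as DE mRNAs, so an unchanged marker could not be looked up. By the fit described below, 16.6% of all tested mRNAs were called higher and 17.1% lower in RSV. In bulk samples, fewer cells of a type and less RNA per cell cannot be told apart. The part of these shifts in the retinoid values was not tested.

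CRABP2 (ENSBTAG00000005716), the carrier that delivers retinoic acid to the receptors, was the member with the largest change. It had 5071.2, 5426.4 and 5202.2 normalised reads in the DMSO libraries and 1489.1, 1612.4 and 887.0 in the RSV libraries. All 3 RSV libraries lay below all DMSO libraries, and the RSV library with size factor 1.05 was the lowest. In whole reads these were 4887, 5207 and 4611 against 1620, 1747 and 935. CRABP2 was down-regulated, with a log2 fold change (log2FC) of −2.02 (standard error 0.19, n = 3 per group, limma voom), or 4.06-fold lower in RSV. Without the library with size factor 1.05 the log2FC was −1.76 (standard error 0.05). By absolute log2FC, CRABP2 ranked 192 among the 14703 mRNAs with a mean of at least 10 normalised reads.

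The spread of CRABP2 was uneven between the groups. The standard deviation of its log2 normalised reads was 0.47 among the RSV libraries and 0.049 among the DMSO libraries. Among 3768 mRNAs with a mean of at least 1000 normalised reads, the RSV value lay at percentile 98.1 and the DMSO value at percentile 49.8, and the medians of these mRNAs were 0.088 and 0.050. CRABP2 was thus about as steady as other abundant mRNAs in the control cultures and among the most variable in the RSV cultures. Without the library with size factor 1.05 the standard deviation among the RSV libraries was 0.081.

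CRABP1 (ENSBTAG00000012909), the related carrier that holds retinoic acid in the cytoplasm, had 3347.6, 3697.5 and 3495.2 normalised reads in DMSO and 1411.8, 1485.9 and 964.8 in RSV. The groups did not overlap, and the lowest value was again that of the library with size factor 1.05. Its log2FC was −1.47 (standard error 0.14), and −1.28 (standard error 0.06) without that library. The RSV spread of CRABP1 lay at percentile 95.9 of the same abundant mRNAs and its DMSO spread at percentile 73.4. Since both carriers fell and CRABP2 fell further, the ratio of CRABP2 to CRABP1 reads within a library changed from 1.51, 1.47 and 1.49 in DMSO to 1.05, 1.09 and 0.92 in RSV. This ratio does not depend on the scaling between libraries.

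RBP4 (ENSBTAG00000000442), the secreted carrier of retinol, had 4180.8, 4422.8 and 4330.1 normalised reads in DMSO and 2963.4, 2977.4 and 3004.4 in RSV. Its RSV values lay within a narrow band, at percentile 1.59 of the RSV spread of abundant mRNAs, and the library that stood apart for CRABP2 was here the highest of the RSV libraries. The log2FC was −0.53 (standard error 0.05), and −0.54 without the library with size factor 1.05. RBP4 and the CRABP genes thus fell in the same libraries, but the RSV library in which the CRABP genes fell furthest was not set apart for RBP4.

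**Figure D1:**
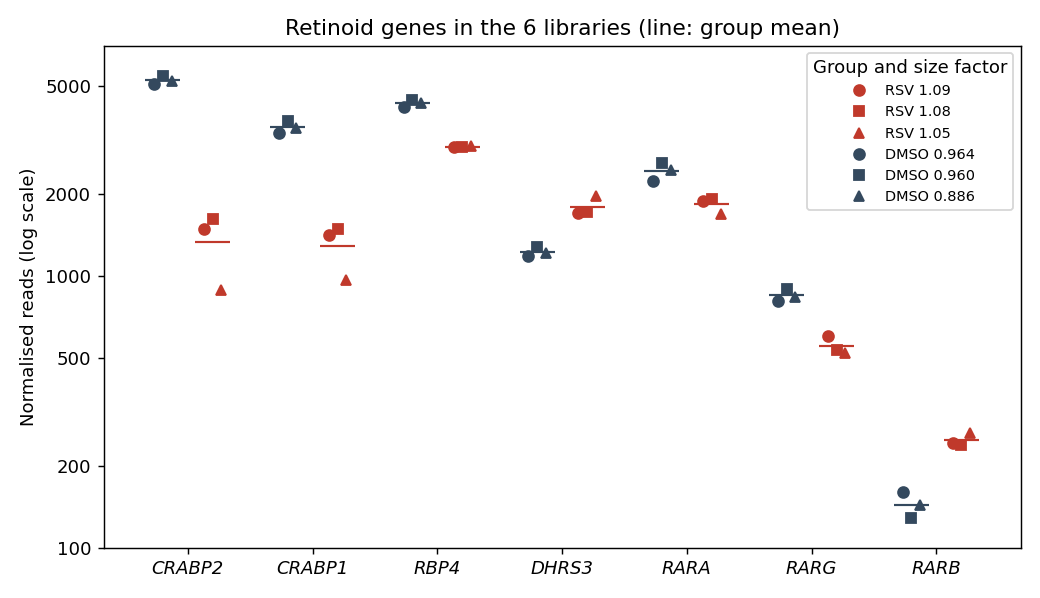
Normalised reads on a log scale (vertical axis) of the 7 named retinoid genes (horizontal axis) in the 3 DMSO libraries (dark) and the 3 RSV libraries (red), with 1 symbol per library and a line at each group mean. The groups did not overlap for any of the 7 genes, which have a name here only as DE mRNAs, against 53.3% of all tested mRNAs. CRABP2 in the RSV library with size factor 1.05 was at 887.0 against 1489.1 and 1612.4 in the other RSV libraries.

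DHRS3 (ENSBTAG00000024493), the enzyme that reduces retinal back to retinol and a known target of retinoic acid, rose. It had 1185.0, 1274.5 and 1215.1 normalised reads in DMSO and 1694.0, 1711.1 and 1967.5 in RSV. The RSV libraries were all above the DMSO libraries, and the highest value was in the library with size factor 1.05. The log2FC was 0.54 (standard error 0.07), and 0.48 (standard error 0.05) without that library.

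The 3 retinoic acid receptors did not move in 1 direction. RARA (ENSBTAG00000012500) had 2239.3, 2593.9 and 2444.9 normalised reads in DMSO and 1885.2, 1917.8 and 1689.5 in RSV, a log2FC of −0.41 (standard error 0.08). RARG (ENSBTAG00000007592) had 809.4, 892.1 and 837.1 in DMSO and 602.1, 533.5 and 521.8 in RSV, a log2FC of −0.62 (standard error 0.08). Both were lower in every RSV library than in any DMSO library. RARB (ENSBTAG00000011518), the receptor gene best known for being induced by retinoic acid itself, had 159.8, 128.2 and 143.3 normalised reads in DMSO and 242.7, 239.0 and 264.7 in RSV. It rose by a log2FC of 0.79 (standard error 0.12), with no overlap between the groups. Without the library with size factor 1.05 the log2FC values of RARA, RARG and RARB were −0.35, −0.58 and 0.75.

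Levels of different genes can be compared only per transcript length, for which the FPKM of the labelled samples was used. The summed FPKM of the 3 receptor genes was 48.7 ± 1.7 in DMSO and 44.0 ± 1.2 in RSV (SD, n = 3). FPKM puts RSV higher than the size factors do, by a median of 0.14 on the log2 scale, and this sum carries that shift. Within this sum RARB held 9.25% ± 1.48 in DMSO and 19.5% ± 1.9 in RSV. RARA held 64.8% ± 1.6 and 59.8% ± 2.0, and RARG 26.0% ± 0.3 and 20.7% ± 1.1. RARA was the most abundant receptor transcript in all 6 samples, and RARG stood above RARB in every DMSO sample. In RSV the 2 overlapped, with RARG above RARB in RSV1 and RSV3 and below it in RSV2 (FPKM 8.78 against 9.28). This overlap rests on RSV2. The shares are taken within a sample and do not depend on the scaling between samples.

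**Figure D2:**
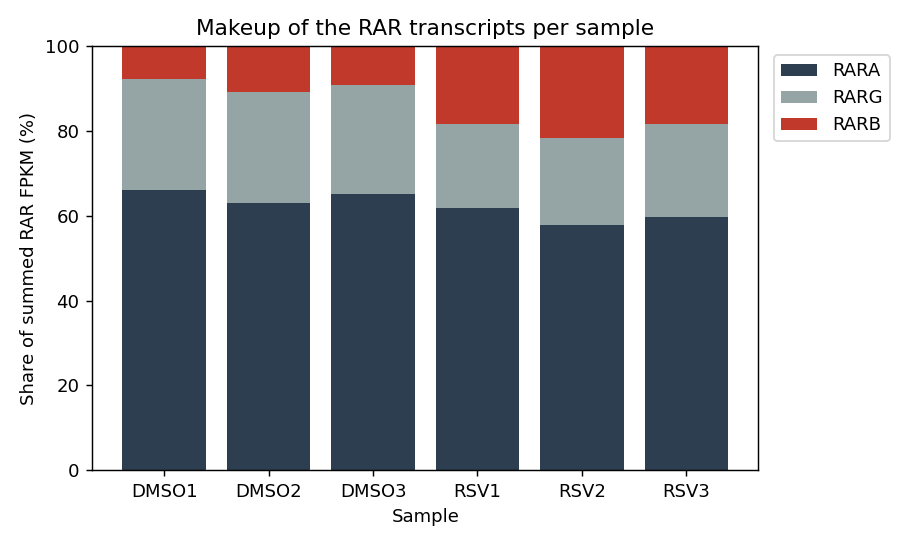
Share in percent (vertical axis) of RARA, RARG and RARB in the summed FPKM of the 3 receptor genes for each labelled sample (horizontal axis). RARB held 7.82% to 10.8% in the DMSO samples and 18.4% to 21.7% in the RSV samples.

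The order of the members per length differed between the groups. In DMSO it was CRABP2 with an FPKM of 234 ± 5, RBP4 with 188 ± 3, CRABP1 with 160 ± 6, DHRS3 with 68.1 ± 1.6, RARA with 31.6 ± 1.9, RARG with 12.7 ± 0.5 and RARB with 4.49 ± 0.56 (SD, n = 3), and no neighbours overlapped. In RSV, RBP4 came first with 143 ± 3, then DHRS3 with 110 ± 11, CRABP2 with 65.3 ± 18.2 and CRABP1 with 64.6 ± 13.2, followed by RARA with 26.3 ± 1.3, RARG with 9.12 ± 0.68 and RARB with 8.56 ± 0.63. CRABP2 and CRABP1 overlapped in RSV, as did RARG and RARB. CRABP2 thus went from the most abundant of the 7 transcripts to a level not separated from that of CRABP1. FPKM puts the RSV group higher than the size factors do, by a median of 0.14 on the log2 scale over 1740 named mRNAs. Fold changes between groups were therefore taken from normalised reads.

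All 7 members were called by limma voom with Benjamini-Hochberg adjustment over all tested mRNAs, at adjusted p under 0.05, 5 lower and 2 higher in RSV. Of all 14703 tested mRNAs 33.6% were called, 17.1% lower and 16.6% higher. Without the DMSO library with size factor 0.964, 0.960 or 0.886 the share of all mRNAs called was 17.5%, 18.1% or 16.4%, and the 7 members were still called. The groups did not overlap for any of the 7, against 53.3% of tested mRNAs, 26.3% with RSV below DMSO and 27% with RSV above. Both counts follow from the choice of genes, which have a name here only as DE mRNAs, and RARA had the smallest change of the 7. All 7 passed the minimum of 10 normalised reads, with the lowest library at 128.2. The median log2FC of the 7 was −0.53, and that of all tested mRNAs was 0.005.

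A wider list of 65 retinoid genes, written with the sheet of names already seen, held these members and 56 others. Names were found for 15 of the 65, 8 of them outside the members. All 15 were called, 12 lower and 3 higher in RSV, with a median log2FC of −0.53. Of all tested mRNAs 33.6% were called, 17.1% lower and 16.6% higher, and their median log2FC was 0.005. Without any of the DMSO libraries in turn RDH10 was no longer called (adjusted p from 0.058 to 0.072, limma voom), and without the DMSO library with size factor 0.886 neither was DHRS1 (adjusted p = 0.051, limma voom). The counts for the list are again set by the sheet of DE mRNAs, and the 50 list genes with no name were not analysed here.

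The named carriers, CRABP2, CRABP1 and RBP4, were all members, and all 3 were lower in RSV. The enzymes outside the members were RDH10, DHRS1 and DHRS7, all lower in RSV. RDH10, which oxidises retinol to retinal, the step that DHRS3 reverses, had 747.1, 705.5 and 700.6 normalised reads in DMSO and 558.9, 550.1 and 383.3 in RSV. The lowest value was in the library with size factor 1.05, and the log2FC was −0.55 (standard error 0.14) with it and −0.37 (standard error 0.07) without it. RDH10 fell while DHRS3 rose. The groups did not overlap for either gene, as for 53.3% of all tested mRNAs, and both have a name here only as DE mRNAs. DHRS1 and DHRS7, short-chain dehydrogenases of the same superfamily, had log2FC values of −0.43 (standard error 0.09) and −0.52 (standard error 0.10).

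Of the 17 listed target genes, 5 had a name, 4 lower and 1 higher in RSV. TGM2, a transglutaminase long known to be induced by retinoic acid, had 1700.8, 1924.8 and 1787.1 normalised reads in DMSO and 1206.0, 1352.1 and 909.8 in RSV, with a log2FC of −0.66 (standard error 0.13), or −0.50 without the library with size factor 1.05. RARRES2, which encodes the secreted protein chemerin, had a log2FC of −0.64 (standard error 0.11). The homeobox genes HOXA4 and MEIS1 had log2FC values of −0.89 (standard error 0.17) and −0.52 (standard error 0.09), and HOXA4 was low, with 93.4 to 107.2 normalised reads in DMSO and 48.7 to 66.5 in RSV. NR2F1, an orphan nuclear receptor, was the 1 of these 5 that rose. It went from 608.1, 697.2 and 631.8 normalised reads to 860.3, 1058.6 and 869.9, with a log2FC of 0.52 (standard error 0.10). DHRS3 and RARB, described above as target of or induced by retinoic acid, were listed under other roles and also rose. The other named carriers, enzymes and receptors, CRABP2 among them, were all lower in RSV. They were not sorted by whether retinoic acid induces them.

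**Figure D3:**
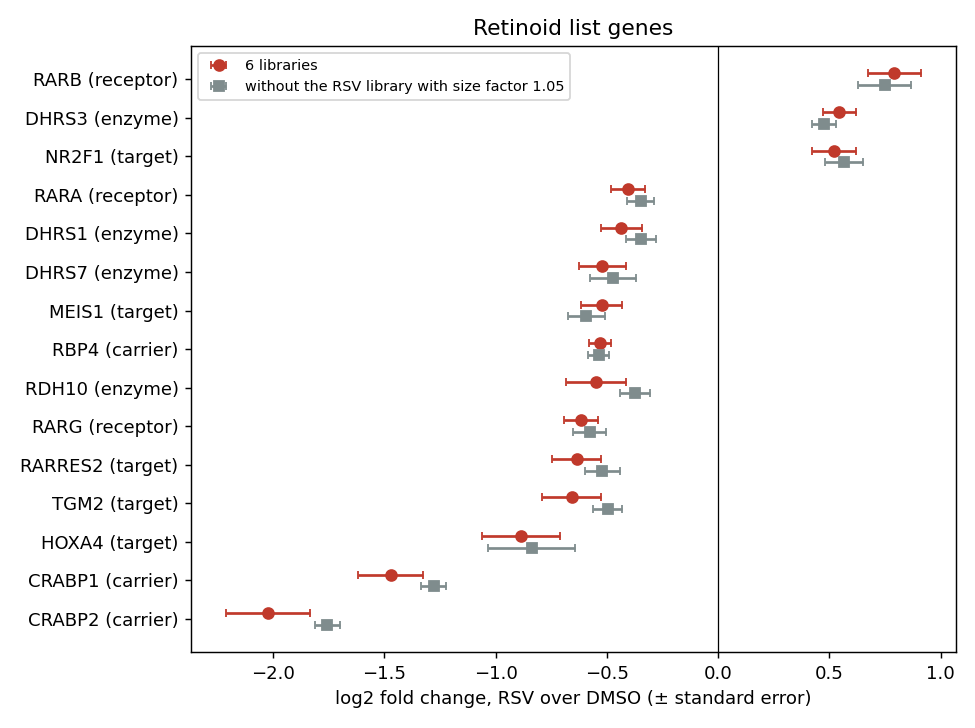
log2 fold change of RSV over DMSO (horizontal axis, bars are standard errors from limma voom) for the 15 named retinoid genes with their role (vertical axis), from all 6 libraries (red) and without the RSV library with size factor 1.05 (grey). RARB, DHRS3 and NR2F1 lie above 0 and the other 12 below, and CRABP2 moved from −2.02 to −1.76 without that library.

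The library with size factor 1.05 lay furthest from the DMSO mean, in the direction of the change, for 6 of the 7 members (85.7%) and for 11 of the 15 list genes (73.3%). It did so for 3445 of the 4945 mRNAs called (69.7%), so the share over the list was close to that over all called mRNAs. RBP4, NR2F1, MEIS1 and HOXA4 were the list genes for which another RSV library lay furthest.

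CRABP2 was compared with 1747 other named mRNAs by its profile over the 6 libraries, as log2(normalised reads + 1) minus the DMSO mean. The measure was the root-mean-square difference of the profiles, and it is a description, since these mRNAs have names as DE mRNAs. The nearest was MFAP5, which encodes a glycoprotein of extracellular microfibrils, at 0.078. It had 1008.6, 946.3 and 1042.5 normalised reads in DMSO and 276.7, 322.1 and 177.4 in RSV. Next came CYP51A1, the lanosterol demethylase of cholesterol synthesis, at 0.093, and C1QTNF3, a secreted C1q-like protein, at 0.095. LHX9, a homeobox gene, and SLAMF9, a cell surface receptor of the immunoglobulin superfamily, followed at 0.115 and 0.124. LHX9 rests on few reads, with 23.9 to 26.1 normalised reads in DMSO and 2.8 to 7.4 in RSV. CRABP1, whose fall was smaller, ranked 74 at 0.397. Without the library with size factor 1.05, MFAP5 and LHX9 were the 2 of these 5 that stayed among the nearest 5, and CYP51A1, C1QTNF3 and SLAMF9 moved to ranks 8, 7 and 9.

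**Figure D4:**
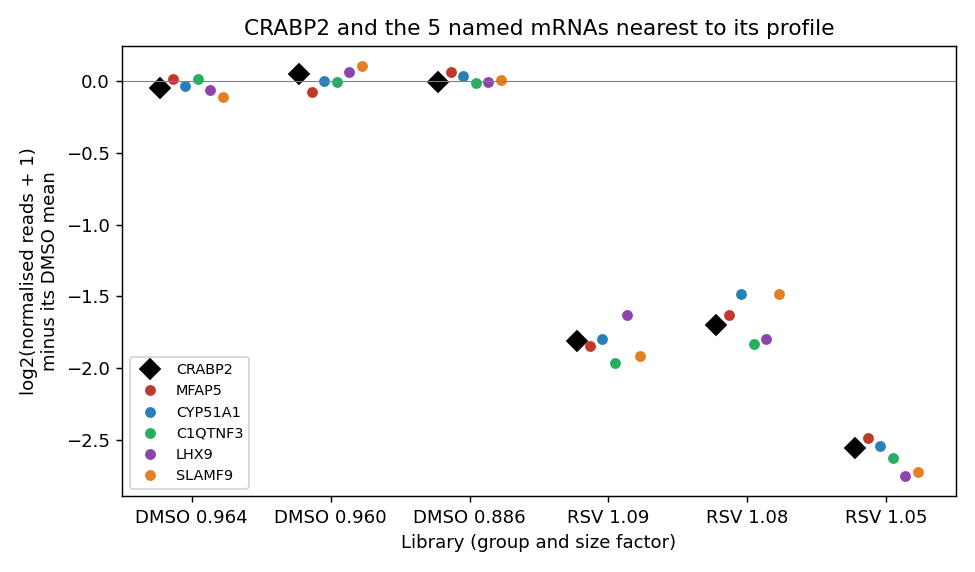
Profiles of CRABP2 (black diamonds) and the 5 nearest named mRNAs (circles), as log2(normalised reads + 1) minus the mean of the DMSO libraries (vertical axis), in each library (horizontal axis, group and size factor). MFAP5 lay within a root-mean-square difference of 0.078 of CRABP2, and all 6 mRNAs were lowest in the RSV library with size factor 1.05.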

How the data were processed

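RNA of 3 RSV-treated and 3 DMSO-treated cultures was sequenced by the authors, who filtered the reads and compared the groups with DESeq. The labels list bosTau8 and Bowtie 0.12.9, which the methods tie to the miRNA reads. The aligner, counting tool and annotation of the mRNA reads are not given in the sources used here. The deposited table holds, per mRNA, the mean normalised read count of each group, that is counts divided by size factors, with most decimal points lost, and the authors' log2 fold change, P-value and adjusted P-value. The P-values were not used, and the deposited log2 fold change served only to place the decimal points. miRNAs were not analysed here.

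Each mean was written as 3 whole reads over 3 size factors, up to a mean of 10000 normalised reads. Of 20459 mRNAs with reads, 20100 had 1 combination and 359 had none and were left out. In a simulation, 911 of 911 mRNAs returned the right reads. It held only group means lower than those of CRABP2, RBP4, CRABP1 and RARA in DMSO, so it does not cover these 4 genes. Across 1673 mRNAs of the authors' sheet, the deviations of each recovered library from its group mean had a correlation of 1.00 with those of an FPKM column. Genes are not independent replicates.

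Names and FPKM per sample came from the authors' sheet of DE mRNAs, as the choice of these genes specifies. The members and all lists were chosen with earlier results of these data known. A few genes of the lists are not reported here. The genes named were the members, the list genes with a name and the 5 mRNAs nearest to CRABP2.

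The voom method of limma 3.58.1 in R 4.3.3 (limma voom) was used to fit the reads, taking library sizes from the size factors, a minimum mean of 10 and Benjamini-Hochberg adjustment. In simulated reads of 14703 mRNAs for RSV against DMSO, with 200 changed by a log2 fold of 1 at a dispersion of 0.02, the fit recovered 173 (86.5%) and called 5 others. The simulation had the same dispersion in both groups, few changed mRNAs and no library that stood apart. Its few other calls therefore do not carry over to these data. No exact permutation test of 3 against 3 libraries can reach a two-sided p under 0.10. The remaining software was Python 3.11.15, numpy 2.4.6, scipy 1.17.1, pandas 2.3.3, numba 0.67.0 and matplotlib 3.10.9.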

Additional observations from a re-analysis of the deposited data

How the results depend on the processing

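The 7 members were called in every fit tried, and no log2FC of the 15 named retinoid genes changed sign. These genes have a name here only as DE mRNAs of the same libraries, so calls that stay are no independent support. Of 180 values of these genes under the alternatives, 170 moved by less than the spread between libraries. The other 10 were 9 values by FPKM, which shifts the named mRNAs by a median of 0.14 and takes RARA to −0.27, and RBP4 with total recovered reads as library size (−0.48). Leaving out single libraries gave CRABP2 log2FC values from −2.18 to −1.76, and it was −1.84 by FPKM. Calls over all mRNAs, 4945 from all libraries, ranged from 2418 to 6148 when each library was left out, with 2566, 2663 and 2418 without the DMSO libraries with size factors 0.964, 0.960 and 0.886. The list genes called then ranged from 13 to 15. The cause was not tested. With total recovered reads as library size, 59.6% of calls were higher in RSV, against 49.3%. Of the 5 mRNAs nearest to CRABP2, 3 stayed with a pseudocount of 0.1, and 2 to 5 when single libraries were left out, among them MFAP5 each time. Each recovered library was matched to the labelled sample whose FPKM it followed, for a fit with the replicate number as a block. Under the replicate block 4769 mRNAs, 15 list genes and 7 members were called, and CRABP2 had a log2FC of −2.01. Same-numbered samples deviated together little (correlations across 14703 mRNAs of 0.077, 0.021 and 0.043), and 5 of 6 samples correlated best with their own number. Pairs with different numbers had correlations from −0.066 to 0.023. The labels give only the shared number, and whether same-numbered cultures were paired is not settled by these values.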
